A study of Mus musculus with 11 samples.

Results

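MHC class I genes were followed in macrophages (macs) sorted from 5 mouse tissues, in WT cells and in cells in which the transcription factor ZEB2 had been deleted. The 10 genes were taken by name, not by a limit on a measured value, from the 27998 genes of each count table: the heavy chains H2-K1, H2-D1, H2-Q4, H2-Q6, H2-Q7, H2-T23, H2-M2 and H2-M3, the light chain B2m and the peptide transporter subunit Tap1. They were brain microglia, macs of the colon (CMs) and the spleen (SMs), alveolar macs of the lung (AMs) and the Kupffer cells of the liver (KCs), read by droplet sequencing of transcript 3′ ends (10x Genomics) as unique molecular identifiers (UMIs). Each tissue gave 1 WT library, of Zeb2fl/fl mice, whose Zeb2 alleles carry loxP sites and which had no Cre transgene, and 1 Zeb2KO library, of Zeb2fl/fl mice that carried a Cre. A sixth WT library, again of KCs, was made from mice with loxP sites in Nr1h3 in place of Zeb2 (Nr1h3fl/fl) and no Cre. Per the methods of the study, the mice were on a C57BL/6 background, of mixed sexes, 6 to 8 weeks old, and compared with littermates. The cells had been sorted by surface proteins: CD45, F4/80 and CD64 in all, at intermediate CD45 for microglia, with Clec4F for KCs, with CD11c and SiglecF for AMs, and leaving out Ly6C, Ly6G and SiglecF positive cells for CMs and SMs. How many animals went into a library is not given in the sources used here. The libraries' labels name Fcgr1-cre as the driver in every tissue, while those methods name Clec4f-cre for KCs and Itgax-cre for AMs, so the groups are called Zeb2KO without a driver. These drivers act in other immune cells too, per the study some macs of the Zeb2KO mice keep a copy of Zeb2 in each organ but the brain, and the recombined allele still gives a transcript with its 3′ end, so Zeb2 counts cannot check the deletion.

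MHC class I molecules display peptides from proteins made inside a cell to CD8 T cells and to NK cell receptors. The proteasome cuts the peptides, the TAP transporter carries them into the endoplasmic reticulum, and a heavy chain binds them together with beta-2 microglobulin, without which most class I molecules do not reach the surface. H2-K and H2-D are the classical, highly polymorphic heavy chains of this strain. H2-Q, H2-T and H2-M genes encode nonclassical chains, of which Qa-1 (H2-T23) shows a leader peptide of other class I chains to NK cells and H2-M3 binds formylated peptides of bacteria. Interferons raise the whole pathway through interferon regulatory factors, and the transactivator NLRC5 acts on an upstream module that class I promoters share.

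Of the 10 genes, 9 lie on chromosome 17 and B2m lies on chromosome 2 (chr2:122147686-122153083, GRCm38/mm10, GENCODE M21). From the centromeric side these are H2-K1 (chr17:33996017-34000347), Tap1 (chr17:34187553-34197225), H2-D1 (chr17:35262730-35267499), H2-Q4 (chr17:35379617-35385290), H2-Q6 (chr17:35424850-35430055), H2-Q7 (chr17:35439155-35443773), H2-T23 (chr17:36029773-36032855), H2-M3 (chr17:37270220-37274484) and H2-M2 (chr17:37480851-37483552). All 10 are annotated as protein coding. The RefSeq promoters of these genes (GRCm38.p6, 250 bases before to 50 after the start) were searched on both strands for a core of interferon regulatory factor sites, AANNGAAA, which reads TTTCNNTT on the other strand. This core was in 9 of the 10 promoters, against 23.9% of all 32851 promoters of the same length, and in 3 of 10 promoters of antigen processing genes. The windows below, on the strand of each gene, are shown because the interferon comparisons further on concern the same genes. Capitals mark the core, whose first base lay at positions -153 to -81 from the start.
H2-K1 (chr17:34000400-34000467, minus strand): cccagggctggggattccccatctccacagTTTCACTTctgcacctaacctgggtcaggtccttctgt
H2-D1 (chr17:35262914-35262981, plus strand): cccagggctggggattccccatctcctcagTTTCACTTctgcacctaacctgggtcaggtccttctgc
H2-Q4 (chr17:35379434-35379501, plus strand): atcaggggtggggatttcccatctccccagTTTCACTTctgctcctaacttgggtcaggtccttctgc
H2-Q6 (chr17:35424668-35424735, plus strand): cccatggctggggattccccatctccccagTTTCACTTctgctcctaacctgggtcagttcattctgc
H2-Q7 (chr17:35439012-35439079, plus strand): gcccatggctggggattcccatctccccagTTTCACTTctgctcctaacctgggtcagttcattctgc
H2-M3 (chr17:37270103-37270170, plus strand): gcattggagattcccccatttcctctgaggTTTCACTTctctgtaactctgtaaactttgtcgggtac
H2-M2 (chr17:37483659-37483726, minus strand): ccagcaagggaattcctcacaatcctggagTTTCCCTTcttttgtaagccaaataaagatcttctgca
H2-T23 (chr17:36032745-36032812, minus strand): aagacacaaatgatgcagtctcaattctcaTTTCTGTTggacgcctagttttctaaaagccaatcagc
B2m (chr2:122147520-122147587, plus strand): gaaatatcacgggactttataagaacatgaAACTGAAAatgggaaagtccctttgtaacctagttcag

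The H2-K1 and H2-D1 windows shared 66 of 68 bases, and the H2-K1 window shared 62 with H2-Q6 and 60 with H2-Q4. Tap1 had no match in its window. The letters GGGNNTTCC, written after NF-κB sites, were in 6 of the 10 promoters (H2-K1, H2-D1, H2-Q4, H2-Q6, H2-Q7 and H2-M2) and in 5.82% of all promoters. The E-box letters CAGGTG, the core that ZEB proteins bind, were in the promoters of H2-M2 and Tap1, 2 of the 10, against 20.2% of all promoters. CCAAT was in all 10 and in 37.4% of promoters, and TGACG in 8 and in 20.8%. These matches are letters in a sequence and not measured sites.

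The libraries held 3097 to 7703 cell barcodes and 11133411 to 47400786 UMIs. Cells that failed the filter and clusters of other cell types were left out (the latter were 20% to 28.1% of filtered cells in spleen, 1.76% to 11.9% in liver, at most 5.80% elsewhere), which kept 2828 to 6974 cells in each. The rule for other cell types kept liver clusters 10 (261 cells, led by endothelial genes such as Ptprb, Clec4g and Kdr) and 12 (157 cells, led by hepatocyte genes such as Bhmt and Fabp1) among the KCs. Any 2 libraries of the series shared 14 to 76 barcodes. The 8 macrophage markers were at 20 CPM (UMI counts per 1000000 UMIs) or more in 10 of the 11 libraries. In WT AMs C1qa and C1qb were below 1 CPM, and the other 6 were above 20. Of the markers of each tissue's macs, Clec4f, Timd4, Vsig4 and Cd5l summed to 15130 CPM in WT and 6883 in Zeb2KO KCs. The microglial markers P2ry12 and Tmem119 were at 4405 and 2428 CPM in WT and at 3360 and 1869 CPM in Zeb2KO microglia. Levels below are CPM over all macs of a library taken as 1 sum, with an exact Poisson 95% interval in parentheses that covers counting error only, and a lower level in such a sum cannot be told apart from fewer cells that express the gene.

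To compare class I genes between resident macs, their levels in the WT libraries were set side by side. Among the Zeb2fl/fl libraries KCs held the most B2m, H2-D1, H2-Q6, H2-Q7, H2-T23, H2-M3 and Tap1, and AMs the least of 8 of the 10 genes. Per the methods of the study, KCs and AMs were sequenced on a NextSeq, and microglia, SMs and CMs on a HiSeq with another Cell Ranger version. Liver was digested with collagenase A, and lung, brain and spleen with Liberase. In this ranking such differences cannot be told apart from those between tissues. No tissue has a replicate, so the 2 WT KC libraries give the only measure of how far libraries without Zeb2 deletion differ. Being of 1 tissue, they cannot measure the differences in sequencing and digestion. Between those, 95% of all genes at 20 CPM or more differed by at most 0.70 on the log2 scale.

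H2-K1 was at 1908 CPM (1876 to 1940) in SMs, 1789 (1773 to 1806) in KCs, 1006 (996 to 1015) in CMs, 675 (665 to 685) in AMs and 513 (500 to 526) in microglia. Its levels thus spanned 3.72-fold, with only the step from KCs to CMs above 0.70. H2-D1 was at 4293 CPM (4267 to 4319) in KCs, 1943 (1930 to 1956) in CMs, 1237 (1212 to 1263) in SMs, 991 (979 to 1002) in AMs and 812 (796 to 828) in microglia. KCs stood 1.14 above CMs on the log2 scale, and the other neighbours lay within 0.70. The additional Nr1h3fl/fl WT KCs had 1789 CPM of H2-K1, like the Zeb2fl/fl WT KCs, but only 2499 CPM of H2-D1, which is a log2 difference of -0.78. The UMIs of H2-K1 per UMI of H2-D1 therefore ran from 0.417 in Zeb2fl/fl WT KCs to 1.54 in WT SMs, and Nr1h3fl/fl WT KCs gave 0.716. Levels of the 2 classical heavy chains did not rank the tissues alike.

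The light chain B2m was at 7308 CPM (7274 to 7342) in KCs, 4814 (4793 to 4834) in CMs, 3569 (3536 to 3603) in microglia, 3069 (3029 to 3110) in SMs and 1553 (1538 to 1568) in AMs. Nr1h3fl/fl WT KCs had 7031 CPM, so the 2 WT KC libraries differed by only -0.06. The one gap above 0.70 between neighbours was that between SMs and AMs, at 0.98. Tap1, which encodes a subunit of the TAP transporter, was at 94.8 CPM (90.9 to 98.7) in KCs, 64.1 (58.4 to 70.2) in SMs, 38.2 (34.8 to 41.8) in microglia, 33.6 (31.9 to 35.4) in CMs and 18.4 (16.8 to 20.1) in AMs. Its 63.6 CPM in Nr1h3fl/fl WT KCs lay at the level of the SMs.

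Among the nonclassical chains, H2-T23 was at 463 CPM (454 to 471) in KCs against 109 (103 to 115) in microglia, 92.3 (89.5 to 95.2) in CMs, 87.8 (81.1 to 94.8) in SMs and 65.0 (62.0 to 68.1) in AMs. KCs were 2.08 above microglia on the log2 scale, but the Nr1h3fl/fl WT KCs had 217 CPM, 1.09 below the other WT KCs. The remaining tissues lay within that difference of each other, and both KC libraries were above all of them. H2-Q4 had its highest WT level in microglia, at 66.8 CPM (62.3 to 71.5), and its lowest in AMs, at 9.66 (8.53 to 10.9). H2-Q7 ran from 65.9 CPM (62.7 to 69.2) in KCs to 7.32 (6.35 to 8.41) in AMs, a 9.0-fold range. H2-Q6 was low throughout, from 11.5 CPM (10.2 to 13) in KCs to 4.55 (3.79 to 5.43) in AMs, with no neighbours further apart than 0.57. H2-M3 ran from 110 CPM (106 to 114) in KCs to 23.5 (21.7 to 25.3) in AMs.

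H2-M2 behaved unlike the other 9 genes, being at 118 CPM (115 to 121) in WT CMs and at most 1.07 in the other 4 Zeb2fl/fl WT libraries and 1.85 in Nr1h3fl/fl WT KCs. The CM level was 5.85 above that of KCs on the log2(CPM + 1) scale. In AMs the 0.0364 CPM is a single UMI.

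**Figure D1:**
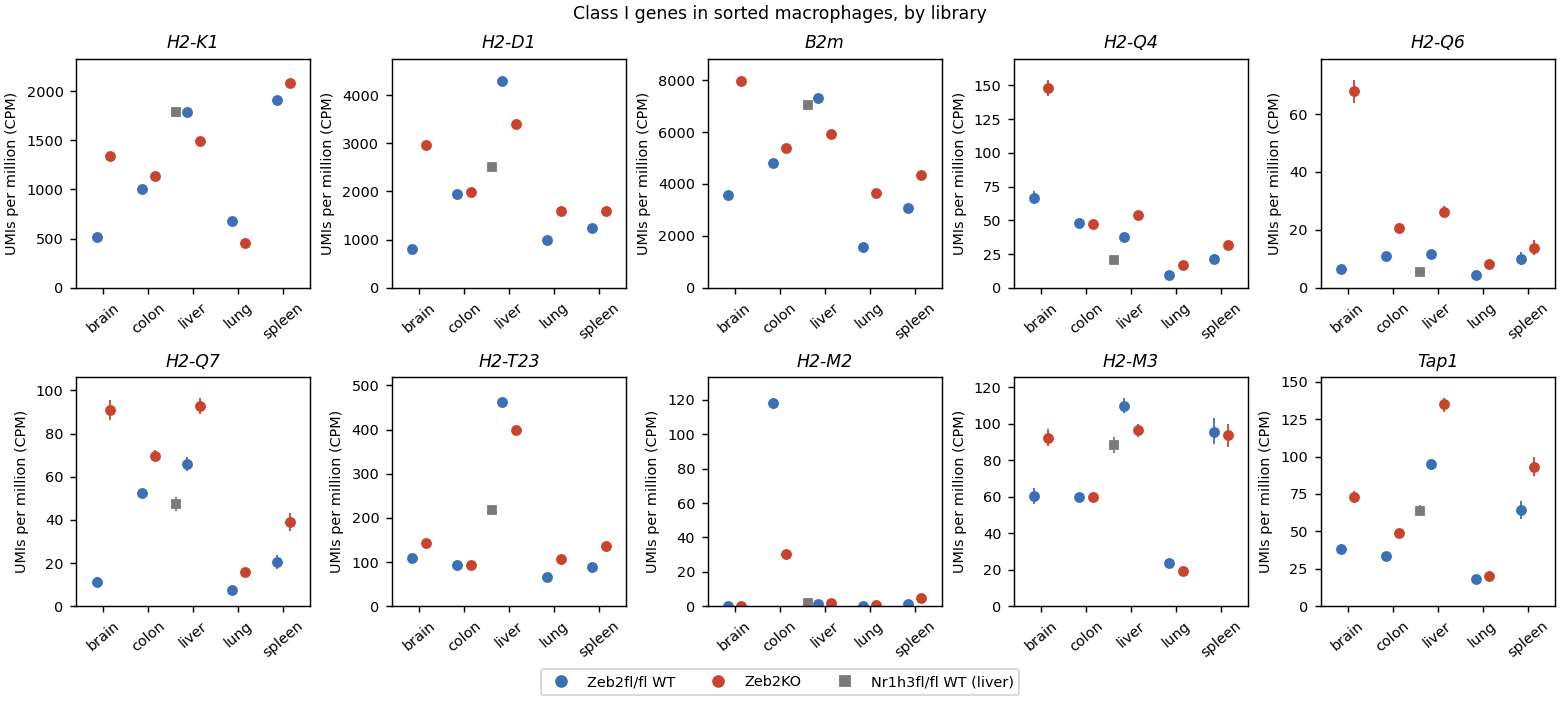
Levels of the 10 class I genes in CPM by tissue, for the Zeb2fl/fl WT (blue), Zeb2KO (red) and Nr1h3fl/fl WT (grey square) libraries, 1 point per library, with exact Poisson 95% intervals. Zeb2KO microglia lie above WT microglia for H2-K1, H2-D1, B2m and the H2-Q genes, and H2-M2 is high only in the 2 colon libraries, at 118 CPM in WT and 30.1 in Zeb2KO.

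The additional Nr1h3fl/fl WT KCs kept the first place only for B2m, H2-D1 and H2-T23, since they had 5.45 CPM of H2-Q6, below WT CMs, SMs and microglia, 47.3 of H2-Q7, below WT CMs, and 88.4 of H2-M3, below WT SMs.

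The first question of the design is what loss of ZEB2 changes in each tissue. Microglia showed the largest difference of the 5 tissues: class I heavy and light chains were higher in the Zeb2KO library, by log2 ratios of 1.13 (H2-Q4) to 3.23 (H2-Q6) in the 6 genes called. A gene was called here when the log2 ratio of CPM + 1 was at least 1 in size and the higher library had at least 20 CPM. This rule called 6 of the 9 members that reached 20 CPM, all higher, against 8.34% of all genes. H2-Q6 and H2-Q7, at 6.32 and 11.3 CPM in WT, passed the floor of 20 CPM only through the Zeb2KO library. Nothing is therefore read from their part in this count. Without replicates within a tissue, no test of this ratio exists.

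In microglia, H2-K1 was at 513 CPM (500 to 526) in WT and 1338 (1321 to 1356) in Zeb2KO, a log2 ratio of 1.38. H2-D1 was at 812 (796 to 828) and 2959 (2933 to 2985) CPM, a log2 ratio of 1.86. B2m was at 3569 (3536 to 3603) and 7970 (7927 to 8012) CPM, a log2 ratio of 1.16. The 2 classical heavy chains and B2m thus all at least doubled, but unevenly. H2-D1 gained most, and there were 4.40 B2m UMIs per H2-D1 UMI in WT and 2.69 in Zeb2KO. The Qa-2 family genes differed most. H2-Q6 was at 6.32 CPM (5.0 to 7.89) in WT and 67.8 (63.9 to 71.8) in Zeb2KO, and H2-Q7 at 11.3 (9.47 to 13.3) and 90.8 (86.3 to 95.5), log2 ratios of 3.23 and 2.90. H2-Q4 was at 66.8 (62.3 to 71.5) and 148 (142 to 154) CPM. These Zeb2KO microglia had the highest H2-Q4 and H2-Q6 level of all 11 libraries. Tap1, H2-M3 and H2-T23 did not reach a log2 ratio of 1, at 38.2 (34.8 to 41.8) and 72.7 (68.7 to 76.8) CPM for Tap1 (0.91), 60.2 (56.0 to 64.7) and 92.2 (87.7 to 96.9) for H2-M3 (0.61), and 109 (103 to 115) and 143 (138 to 149) for H2-T23 (0.40). H2-M2 was close to 0 in both.

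H2-Q6 is the member whose UMIs are least certain, because its 3′ end resembles those of related genes. In its longest transcript 7.20% of 98-base stretches in the last 500 bases occur in another gene as well, there among them H2-Q4, and in its other transcript 41.7% do, in H2-D1, H2-Q1 and H2-Q7 among others. H2-Q7 shared at most 4.22%, H2-Q4 6.95% and H2-T23 10.4%, while H2-K1, H2-D1, B2m, H2-M2, H2-M3 and Tap1 shared none. How the counting treated reads of B2m, H2-Q4, H2-T23 and Tap1 that overlap a gene on the opposite strand is not given in the sources used here.

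The microglia of the 2 genotypes fell largely into separate clusters of cells, whose levels are given as a description. In the WT clusters of at least 50 cells H2-D1 lay between 725 and 865 CPM, and in the Zeb2KO clusters between 2802 and 3562. B2m lay between 3240 and 4133 CPM in WT and between 6040 and 9390 in Zeb2KO clusters, and H2-K1 between 410 and 602 and between 1263 and 1903. None of these 3 ranges overlapped, but clusters are no replicates. The share of all genes without overlap was not computed, so nothing is read from this about class I genes. H2-Q6 (3.29 to 7.41 and 37.5 to 158 CPM) and H2-Q7 (10.4 to 14.2 and 70.2 to 205 CPM) did not overlap either. Nor did the uncalled Tap1 (24.9 to 40.9 and 60.5 to 287 CPM) and H2-M3 (49.8 to 67.8 and 76.2 to 154 CPM). H2-Q4 (32.7 to 92.9 and 85.1 to 269 CPM) and H2-T23 (60.5 to 112 and 109 to 345 CPM) did overlap. A Zeb2KO cluster of 51 cells led by Ifit3, Ifit1 and Rsad2, which are interferon-stimulated genes, had the most Tap1 (287 CPM, 228 to 357) and H2-T23 (345 CPM, 279 to 421). In the large Zeb2KO cluster of 1324 cells, by contrast, Tap1 was at 73.3 CPM and H2-T23 at 142. T or NK cell markers summed to below 1 CPM in both microglial libraries, with 5 of 6 at 0, and of the 4 measured B cell markers only Cd79b was above 1 CPM (56.2 in WT and 23.3 in Zeb2KO). Ttr, a marker of hepatocytes that the choroid plexus also makes, was at 0.405 CPM in WT and 59.9 in Zeb2KO microglia, and its part in the result was not tested. The haemoglobin genes Hba-a1 and Hbb-bs were at 139 and 319 CPM in WT and 5.49 and 26.5 in Zeb2KO microglia, and were among the leading genes of 1 WT cluster, in which H2-D1 was at 862 CPM, against 725 and 865 in the other WT clusters. Their part in the ratios was not tested.

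Summed over all cells, CMs showed little difference in class I genes apart from H2-M2, which was lower in the Zeb2KO library. The rule called 1 of 10 members, against 1.58% of all genes. H2-M2 was at 118 CPM (115 to 121) in WT and 30.1 (28.3 to 31.9) in Zeb2KO, a log2 ratio of -1.94. H2-Q6, at 10.8 (9.84 to 11.8) and 20.7 (19.3 to 22.2) CPM, had a ratio of 0.88 and Tap1, at 33.6 (31.9 to 35.4) and 49.2 (47.0 to 51.6), one of 0.54. The other 7 genes lay between -0.03 (H2-Q4) and 0.41 (H2-Q7), with H2-D1 at 1943 and 1997 CPM and B2m at 4814 and 5386 CPM. These sums cover unlike cells. Cluster 6, with Ms4a1 among its leading genes, held 1.07% of WT and 18.9% of Zeb2KO cells. Over both libraries it had 78.3 CPM of Tap1, 84.3 of H2-Q7 and 31.4 of H2-Q6. Its Zeb2KO cells had the least H2-K1 (1001 CPM), H2-D1 (1421), B2m (4205) and H2-M3 (42.7) of 10 Zeb2KO clusters.

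The H2-M2 UMIs of the colon came mainly from 2 clusters of cells. Cluster 3 had 364 CPM (351 to 378) in WT and 159 (147 to 172) in Zeb2KO, and cluster 2 had 189 (181 to 198) and 115 (103 to 128). The remaining colonic mac clusters of at least 50 cells of a library had 4.87 to 28.2 CPM in WT and 0.244 to 32.3 in Zeb2KO. Cluster 3 held 14.7% of WT and 8.93% of Zeb2KO cells and cluster 2 held 19.0% and 6.02%, so both the share of these cells and the level within them were lower in the Zeb2KO library. H2-M2 is itself one of the leading genes of these clusters, with Apol7c, Itgax and Zmynd15, so these values describe the clusters and test nothing.

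**Figure D2:**
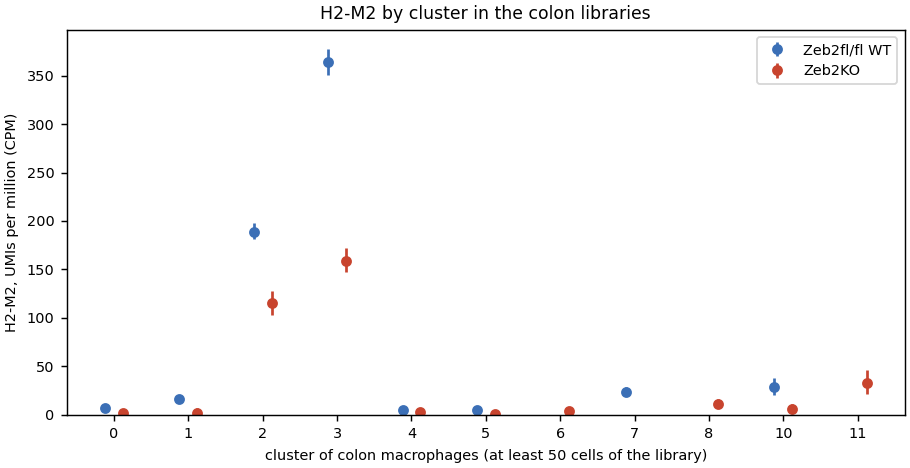
H2-M2 in CPM in each cluster of colonic macs, for the WT (blue) and Zeb2KO (red) library, with exact Poisson 95% intervals. A point is drawn for clusters with at least 50 cells of a library. Clusters 2 and 3 stand above all others in both libraries, at 189 and 364 CPM in WT and 115 and 159 in Zeb2KO.

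In KCs only H2-Q6 passed the limit. The rule called 1 of 9 members, H2-Q6, against 4.53% of all genes. H2-Q6 was at 11.5 CPM (10.2 to 13) in WT and 26.3 (24.3 to 28.3) in Zeb2KO KCs, a log2 ratio of 1.12. It passed the floor of 20 CPM only through the Zeb2KO library, so nothing is read from this count. H2-Q4, at 37.4 (35.0 to 39.9) and 53.7 (50.9 to 56.6), H2-Q7, at 65.9 (62.7 to 69.2) and 92.6 (88.9 to 96.4), and Tap1, at 94.8 (90.9 to 98.7) and 135 (130 to 139), had ratios of 0.51, 0.48 and 0.50. B2m, H2-D1, H2-K1, H2-T23 and H2-M3 had ratios of -0.34 (H2-D1) to -0.19 (H2-M3). B2m, for example, was at 7308 CPM in WT and 5916 in Zeb2KO, and H2-D1 at 4293 and 3393. The 2 WT KC libraries, neither with Zeb2 deleted, differed from each other by -1.09 for H2-T23, -0.96 for H2-Q6, -0.85 for H2-Q4, -0.78 for H2-D1, -0.57 for Tap1, -0.47 for H2-Q7 and -0.31 for H2-M3, Nr1h3fl/fl relative to Zeb2fl/fl. For H2-D1, H2-T23, H2-M3, H2-Q4 and Tap1 this was larger than the ratio of Zeb2KO to WT, and for H2-Q6, H2-Q7, B2m and H2-K1 it was smaller. The comparison of WT libraries called 1 of 8 members, H2-T23, against 1.39% of all genes. None of the 8 members was higher in the Nr1h3fl/fl library, with a median of -0.52 against 0.09 over all genes. Set against the Nr1h3fl/fl WT KCs, the Zeb2KO KCs had 3 of 9 members called higher (H2-Q4 at 1.36, H2-Q6 at 2.08 and Tap1 at 1.07), against 8.21% of all genes. Here too H2-Q6, at 5.45 CPM in the Nr1h3fl/fl WT KCs, passed the floor only through the Zeb2KO library. Nothing is read from its part in this count. H2-Q6 was called against both WT libraries. Both ratios use the same Zeb2KO library, through which alone H2-Q6 passed the floor, so nothing is read from their agreement. Against the Zeb2fl/fl library the call of H2-Q6 ended with the other cell types kept (0.92), with all barcodes (0.93), with a pseudocount of 5 CPM (0.92) or with a limit of 50 CPM. Without liver clusters 10 and 12 the ratio of H2-Q6 was 1.11. Further, H2-D1, H2-T23 and H2-M3 changed sign with the WT library used, from -0.34 to 0.44, from -0.22 to 0.87 and from -0.19 to 0.13.

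AMs had more B2m in the Zeb2KO library. B2m was at 1553 CPM (1538 to 1568) in WT and 3654 (3634 to 3673) in Zeb2KO, a log2 ratio of 1.23, and was the 1 gene called of the 5 members at 20 CPM or more, against 11.7% of all genes. H2-D1, at 991 (979 to 1002) and 1588 (1575 to 1601) CPM, and H2-T23, at 65.0 (62.0 to 68.1) and 106 (102 to 109), had ratios of 0.68 and 0.69. H2-K1 went the other way, from 675 (665 to 685) to 459 (452 to 466) CPM, a ratio of -0.56, so the H2-K1 UMIs per H2-D1 UMI were 0.682 in WT and 0.289 in Zeb2KO. H2-M3 was at 23.5 and 19.4 CPM. The lung ratios depend on how the libraries are scaled, since the median over all genes was -0.31 and TMM factors raise all of them by 0.28. With that scaling H2-K1 had a ratio of -0.28, H2-M3 turned from -0.26 to 0.01, and B2m had 1.51. H2-Q7 doubled from 7.32 to 15.9 CPM, a ratio of 1.02, and stayed below the limit of 20 CPM. The neutrophil genes S100a8 and S100a9 were at 14194 and 9361 CPM in Zeb2KO AMs, against 22.9 and 0.0364 in WT, with the neutrophil markers Ly6g and Retnlg at 0.322 and 0.134 CPM in Zeb2KO. Their part in the class I ratios was not tested. The AMs of the 2 genotypes lay largely in separate clusters, WT cells in clusters 0, 2 and 5 (44.6%, 27.7% and 14.3%) and Zeb2KO cells in 1, 3 and 4 (39.4%, 27.7% and 19.6%), and over clusters of at least 50 cells of a library B2m ran from 1228 to 2038 CPM in WT and from 1860 to 5420 in Zeb2KO, so its ranges overlapped.

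SMs had no member past the limit, of 8 at 20 CPM or more, against 3.49% of all genes. H2-Q7, at 20.3 CPM (17.1 to 23.8) in WT and 38.8 (34.9 to 43.2) in Zeb2KO, had a log2 ratio of 0.91. The genotypes lay mostly in different clusters, and the median of H2-Q7 over the 5 Zeb2KO clusters was 19.4 CPM, with 90.5 in cluster 4 alone. H2-T23, at 87.8 (81.1 to 94.8) and 136 (128 to 144), had 0.62, and Tap1, at 64.1 (58.4 to 70.2) and 93.2 (86.9 to 99.7), had 0.53. B2m, at 3069 (3029 to 3110) and 4357 (4314 to 4401), had 0.51, while H2-M3 was at 95.7 and 93.6 CPM and H2-K1 at 1908 and 2085. In the spleen 7 of 8 members were thus higher in Zeb2KO, with a median of 0.52 against -0.02 over all genes. The summed B cell markers were 111 CPM in the WT and 68.5 in the Zeb2KO SMs, and with the clusters of other cell types kept in, the H2-Q7 ratio was 0.27 and that of H2-Q4 0.21, in place of 0.56.

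**Figure D3:**
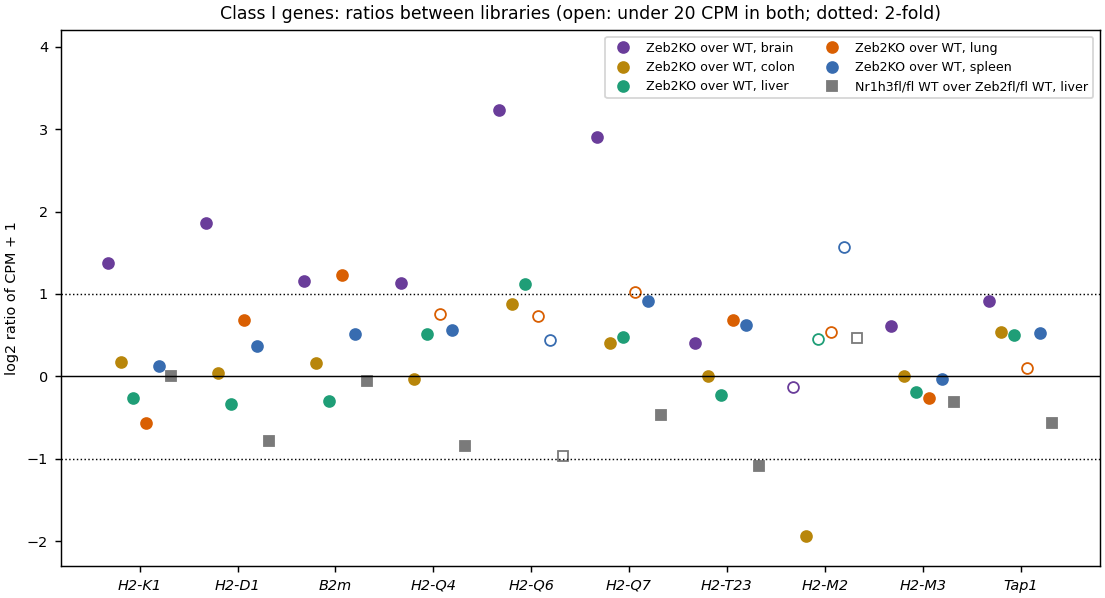
Log2 ratios of CPM + 1 for each class I gene: Zeb2KO over WT in 5 tissues (circles) and Nr1h3fl/fl WT over Zeb2fl/fl WT KCs (grey squares), 1 point per pair of libraries. Open symbols are genes under 20 CPM in both libraries, and dotted lines mark 2-fold. Brain stands highest for H2-K1, H2-D1, H2-Q4, H2-Q6 and H2-Q7, lung is above brain for B2m (1.23 against 1.16), and H2-M2 in colon is the one Zeb2KO point below -1.

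A change shared by the tissues was tested over the 5 pairs of libraries, blocked by tissue, in edgeR's quasi-likelihood test. Each of the 10 members had a fold change above 0, but none passed. The test called 0 of 12131 genes at an adjusted p of 0.05 (0% of all genes), with 1471 at an unadjusted p under 0.05 (12.1%), among them 4 of the 10 members. The median log2 fold change was 0.58 over the members and -0.01 over all genes. Tap1 came closest, at 0.58 ± 0.11 (SE, 5 pairs), with a Benjamini-Hochberg adjusted edgeR p of 0.199 and a ratio above 0 in 5 of 5 tissues. In the same edgeR fit H2-Q4 followed at 0.66 ± 0.20 with an adjusted p of 0.305. H2-Q6 had 1.39 ± 0.43 (adjusted p = 0.311 in edgeR) and H2-Q7 had 1.2 ± 0.40 (adjusted p = 0.343 in edgeR). Both were above 0 in every one of the 5 tissues. B2m (0.61 ± 0.30), H2-D1 (0.57 ± 0.35), H2-T23 (0.36 ± 0.20), H2-K1 (0.22 ± 0.27), H2-M3 (0.08 ± 0.14) and H2-M2 (0.23 ± 0.81) had an unadjusted p above 0.05. Without the brain pair the values of H2-K1 and H2-M3 were -0.08 each, those of H2-Q6 and H2-Q7 were 0.92 and 0.77, and that of H2-D1 was 0.23. Without the lung pair B2m was at 0.38 and H2-T23 at 0.20. DESeq2 with the same design called 389 of 11660 genes (3.34%), and among them 3 of the 10 members, Tap1 (adjusted p = 0.00520), H2-Q6 (adjusted p = 0.0273) and H2-Q7 (adjusted p = 0.0451).

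Antigen processing genes were counted by the same rule. Of 13 antigen processing genes (the second TAP subunit, tapasins, immunoproteasome subunits, proteasome activators, the trimming peptidase, chaperones and Nlrc5), 0 were called in any of the 5 tissues, of 11 to 13 at 20 CPM or more. The share of all genes called was 8.34% in brain, 1.58% in colon, 4.53% in liver, 11.7% in lung and 3.49% in spleen. With so few genes a count of 0 lies near these shares, so nothing is read from it. In brain their median ratio was 0.25, where that of the members was 1.16, and in the other tissues it was 0.19 (colon), 0.05 (liver), 0.08 (lung) and 0.26 (spleen). In the edgeR fit over the 5 pairs 12 of these 13 had a fold change above 0 (median 0.23) and 4 had an unadjusted p under 0.05, against 12.1% of all genes. The DESeq2 fit called 2 of the 13, Psmb9 (adjusted p = 0.0389), the immunoproteasome subunit encoded next to Tap1, and Tap2 (adjusted p = 0.0469), both named here because of these values. Psmb9 was at 95.3 and 153 CPM in microglia, 125 and 158 in CMs, 308 and 351 in KCs, 65.0 and 114 in AMs and 90.1 and 151 in SMs, WT first. It was the higher in Zeb2KO each time, by at most 0.80. Between the 2 WT KC libraries Psmb9 differed by -0.64, and it overlaps Tap1 on the opposite strand.

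Of 15 other class I and class I-like genes in the tables, 3 to 5 reached 20 CPM in a tissue, and 1 was called, in brain, where 8.34% of all genes were called. It was Hfe, which encodes a class I-like regulator of iron uptake. Hfe was at 167 CPM in WT and 59.0 in Zeb2KO microglia, a ratio of -1.49, opposite to the heavy chains. Of 12 regulators of class I transcription, 1 was called, Irf1 in lung (where 11.7% of all genes were called), at 23.3 CPM in WT and 11 in Zeb2KO (-1.02). With TMM scaling Irf1 had -0.77 and was no longer called. Nlrc5 stayed below 20 CPM in all tissues but the spleen, where it was at 18.5 and 34.6 CPM.

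Interferon-stimulated genes, a list of 25, were higher in Zeb2KO microglia in 15 of 15 measured at 20 CPM, with 8 called (TMM scaling ends the call of Usp18, which then stays under 20 CPM) and a median ratio of 1.04, where 8.34% of all genes were called. Only the higher library had to reach 20 CPM, so a gene low in WT could enter this count through the Zeb2KO library alone. Oasl2, an antiviral oligoadenylate synthetase-like gene, was at 7.54 CPM in WT and 47.8 in Zeb2KO microglia (2.51), 3.29 and 30.8 in SMs (2.89), and 0.109 and 21.0 in AMs. In these tissues Oasl2 met the floor only through the Zeb2KO library, so nothing is read from its part in the counts. Ly6e was at 1162 and 3170 CPM in microglia (1.45), 497 and 1084 in CMs (1.12) and 77.9 and 406 in AMs (2.37). Ifit3 (2.04) and Ifi27l2a (2.0) were called in brain and Ifi44 in liver (1.0, and 0.98 with TMM scaling, which ends that call) and spleen (1.70). In KCs 13 of 24 of this list were above 0, with a median of 0.01, and in the other tissues 1 of 14 (colon), 2 of 9 (lung) and 3 of 20 (spleen) were called, all higher, against 1.58%, 11.7% and 3.49% of all genes. Of 14 genes more specific to interferon-gamma, Iigp1, an immunity-related GTPase, was called higher in CMs (6.10 and 37.7 CPM) and lower in KCs (92.8 and 44.9 CPM), Gbp7 lower in microglia (-1.07, and -0.98 with TMM scaling, which ends that call) and Irf1 lower in AMs, as above. Iigp1 in CMs also met the floor only through the Zeb2KO library. The 4 class II genes (Cd74, H2-Aa, H2-Ab1 and H2-Eb1) were called higher in brain, lung and spleen, by 4.56 to 5.16, 1.74 to 2.64 and 1.34 to 1.81. In colon their median was -0.63 and in liver 0.28, and all 4 were called lower in the Nr1h3fl/fl WT KCs. In the edgeR fit over the pairs 0 of the 25, 14 and 4 genes passed, with 9, 3 and 0 at an unadjusted p under 0.05, against 12.1% of all genes. DESeq2 called 3 interferon-stimulated genes higher, 2 interferon-gamma genes higher and 1 lower, and no class II gene, against 3.34% of all genes.

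To see whether class I genes follow the interferon programme from cell to cell, the cells of each library were split by their UMIs of the 25 interferon-stimulated genes, none of which is a class I gene, at 5 or more after thinning each cell to 1000 UMIs. Cells with more of these UMIs had more B2m, H2-D1, H2-T23 and Tap1 in each of the 10 libraries that could be split (WT AMs had only 16 such cells). Between 34 (WT AMs) and 889 (Zeb2KO CMs) cells of a library lay at 4 or 5 such UMIs, next to the limit. The difference was thus found in all 10 libraries for 4 of the 8 members with a mean of 20 CPM, against 1.37% of all genes. The mean log2 ratio of cells with more to cells with fewer was 0.33 for B2m (SD 0.23), 0.25 for H2-D1 (SD 0.29), 0.42 for H2-T23 (SD 0.23) and 0.45 for Tap1 (SD 0.25). H2-K1 (0.25), H2-Q7 (0.62, and 0.39 without the lung library) and H2-M3 (0.27) were higher in 9 of 10 libraries and H2-Q4 (0.41) in 8. At a limit of 1 UMI, which 8 libraries allowed, B2m was higher in 8, H2-D1 and Tap1 in 7 and H2-T23 in 5, with a mean of 0.07. At each cell's own depth B2m and Tap1 were higher in 8 of 8 libraries and H2-D1 and H2-T23 in 7, and at 10 UMIs Tap1 in 7 of 8. In an exact two-sided sign-flip permutation test over the 10 libraries the 4 genes had p = 0.00195, the smallest that 10 libraries allow, and an adjusted p of 0.120 over the 5779 genes tested, none of which passed 0.05. H2-Q6, too low on average for the test, was higher in 5 of 10.

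Tap1 was at 63.3 CPM in cells with more interferon-stimulated UMIs and 36.8 in the others in WT microglia, 87.5 and 63.9 in Zeb2KO microglia, 46.1 and 31.0 in WT CMs, 59.6 and 44.0 in Zeb2KO CMs, 94.9 and 92.4 in WT KCs, 136 and 119 in Zeb2KO KCs, 37.2 and 19.7 in Zeb2KO AMs, 72.8 and 60.9 in WT SMs, 112 and 79.3 in Zeb2KO SMs and 64.1 and 47.5 in Nr1h3fl/fl WT KCs. The pairs lay apart least in WT KCs and most in Zeb2KO AMs, where 54 cells made up the higher class. In KCs almost all cells had 5 or more of these UMIs (96.2% in WT, 90.0% in Zeb2KO and 96.3% in Nr1h3fl/fl WT), against 5.19% of WT and 36.7% of Zeb2KO microglia. Without the liver libraries 7 of the 8 members were higher in each of the 7 libraries left, against 3.03% of all genes, and without the Nr1h3fl/fl library alone 7 of 8 in each of 9, against 2.13%. H2-M2 went the other way, being higher in 0 of 10 libraries. In colon it had 43.8 CPM in cells with more interferon-stimulated UMIs and 133 in the others in WT, and 9.96 and 40.1 in Zeb2KO. It was at 0.216 and 17.3 CPM in WT KCs and 1.25 and 22.8 in Nr1h3fl/fl WT KCs, where only 156 and 135 cells had fewer such UMIs. Those few liver cells may thus differ in kind from the other KCs, which was not tested.

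The higher class I level of Zeb2KO microglia was seen on both sides of this split. Among cells with fewer than 5 interferon-stimulated UMIs (2683 WT and 2054 Zeb2KO cells) the log2 ratio of Zeb2KO to WT was 1.32 for H2-K1, 1.81 for H2-D1, 1.05 for B2m, 1.15 for H2-Q4, 3.22 for H2-Q6 and 2.85 for H2-Q7, close to the ratios over all cells. Among cells with 5 or more (147 and 1189 cells) the same genes had 1.17, 1.57, 0.94, 0.97, 3.03 and 1.92. B2m and H2-Q4 thus lay just under the limit of 1 in these cells, and H2-Q7 had 1.92 in place of the 2.90 over all cells. Of the genes not called, Tap1 had 0.78 among cells with fewer and 0.46 among cells with more, H2-M3 0.53 and 0.04, and H2-T23 0.22 and 0.15. The part of the interferon programme in the difference between genotypes was not tested. In AMs the cells with fewer such UMIs were 6958 of 6974 in WT and 6198 of 6252 in Zeb2KO. Their B2m ratio of 1.23 could therefore hardly differ from that over all cells, and nothing is read from it.

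The cells were also split at 5 UMIs of the 4 class II genes. H2-T23 and H2-Q7 were higher in the cells with more class II UMIs in all 10 libraries that could be split, 2 of 8 members, against 0.759% of all genes. Their mean log2 ratios were 0.47 (SD 0.22) and 0.77 (SD 0.81), with p = 0.00195 in the exact sign-flip permutation test and an adjusted p of 0.0542 over 5795 genes. Tap1 (0.38) was higher in 9 of 10, and H2-K1 (0.24), H2-D1 (0.23), B2m (0.27) and H2-M3 (0.35) in 8. Without Zeb2KO AMs, where 139 cells made up the higher class, the mean of H2-D1 was 0.14, that of H2-M3 0.21 and that of H2-Q4 0.13 in place of 0.27. H2-Q7 was at 82.3 and 13.9 CPM in Zeb2KO AMs and 49.5 and 13.3 in Zeb2KO SMs, the cells with more class II UMIs first, and at 52.4 and 50.5 in WT CMs. So its difference was large in some libraries and near 0 in others. H2-Q7 was higher in 7 of 10 libraries at a limit of 1 UMI, in 6 of 8 at 20 UMIs and in 8 of 11 at each library's median, and H2-T23 in 8 of 10, 8 of 8 and 11 of 11, and at each cell's own depth H2-Q7 was higher in 9 of 9 and H2-T23 in 8 of 9. H2-T23 was at 479 and 363 CPM in WT KCs, 94.8 and 57.0 in WT CMs and 112 and 64.7 in WT AMs. In the colon H2-M2 was far higher in the cells with more class II UMIs, at 126 and 6.13 CPM in WT and 43.8 and 0.863 in Zeb2KO. In microglia the genotypes could be compared on the low side of this split alone, since 14 WT cells had 5 or more class II UMIs. There the ratio of Zeb2KO to WT was 1.66 for H2-D1, 1.26 for H2-K1 and 0.98, under the limit, for B2m. In class II-low SMs the ratio of H2-Q7 was -0.41, that of H2-Q4 0.01 and that of Tap1 0.07, against 0.94, 0.91 and 0.49 in class II-high SMs. The Tap1 ratio of class II-low KCs was -0.06, against 0.58 in class II-high KCs. That of H2-Q6 was 0.47, under the limit of 1, against 1.21, and that of H2-Q7 was 0.19 against 0.54. The part of class II expression in the differences between genotypes was not tested.

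**Figure D4:**
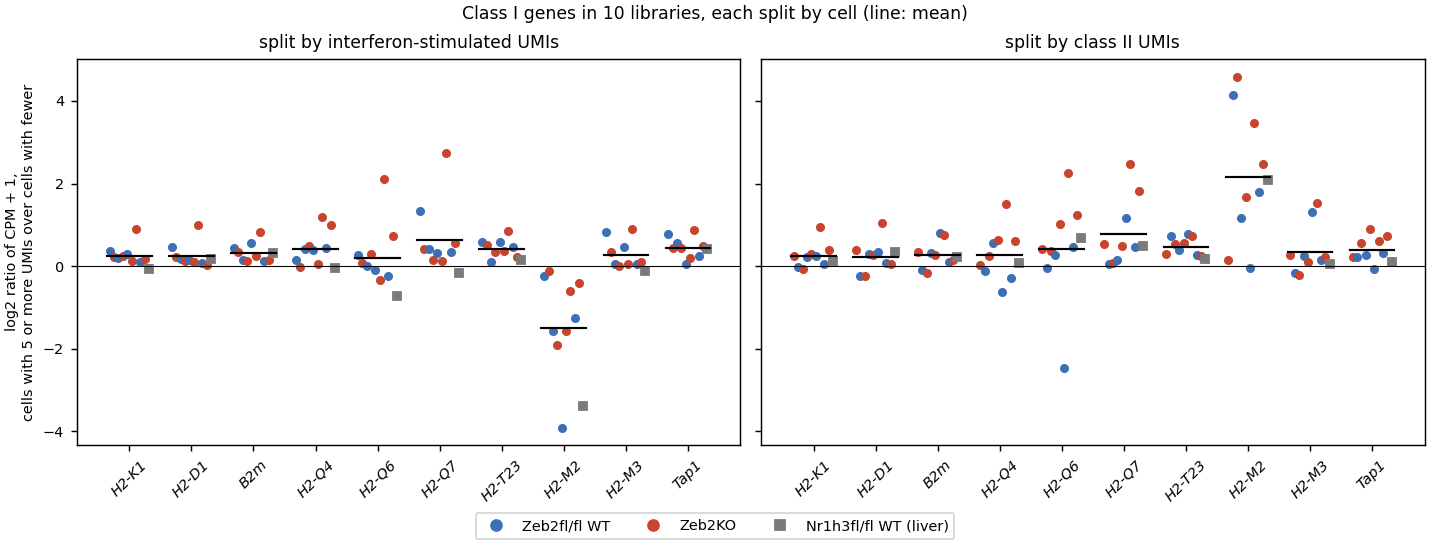
Log2 ratio of CPM + 1 between cells with 5 or more UMIs of a gene list and cells with fewer, for each class I gene, split by interferon-stimulated genes (left) and class II genes (right). Each point is 1 of 10 libraries (WT blue, Zeb2KO red, Nr1h3fl/fl WT grey squares) and the line is their mean. Left, B2m, H2-D1, H2-T23 and Tap1 lie above 0 in all 10, and right, H2-Q7 and H2-T23 do, while H2-M2 lies below 0 on the left and mostly above 0 on the right.

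Since, outside the brain, some macs of the Zeb2KO mice keep a copy of Zeb2, the cells of each library were divided by surface markers that the study gives for cells without ZEB2, a UMI of Siglecf or Cd101 in microglia, Ms4a1 or Siglecf in CMs and KCs, Epcam or Cd101 in AMs, and Siglecf or Epcam in SMs. Such a UMI was seen in 85.1% of Zeb2KO and 13.5% of WT microglia, 12.9% and 0.714% of CMs, 51.1% and 1.18% of KCs, 69.2% and 13.4% of AMs and 4.63% and 0.168% of SMs. In microglia, where the study saw no cells that kept a copy, a marker UMI cannot separate cells with and without Zeb2. CMs and SMs were sorted without SiglecF positive cells, so cells without a marker UMI there may lack Zeb2 too. In the Zeb2KO libraries Tap1, H2-Q4 and H2-T23 were higher in cells with a marker UMI in 5 of 5 tissues, 3 of 8 members against 3.0% of all genes. With the first marker of each tissue alone these were 2 (H2-Q4 and Tap1), and with the second alone 0. In microglia the differences were small, at 144 and 143 CPM of H2-T23 (0.01) and 148 and 144 of H2-Q4 (0.04), with overlapping intervals. Tap1 was at 73.6 CPM with and 66.0 without a marker UMI in microglia, 70.3 and 45.8 in CMs, 162 and 104 in KCs, 20.8 and 16.4 in AMs and 136 and 90.3 in SMs. The WT cells with such a UMI had no more Tap1 than those without in brain (33.7 and 39.0 CPM), colon (25.5 and 33.7) and liver (79.7 and 95), and had 19.1 and 18.3 CPM in lung. Only 31 WT cells in colon and 48 in liver had such a UMI. Their intervals for Tap1, 12.2 to 47.0 and 53.8 to 114 CPM, were wide and included the levels without a UMI. Of the other counted genes, H2-Q4 was higher in WT microglia with such a UMI (83.8 and 63.7 CPM, a log2 ratio of 0.39) and H2-T23 in WT AMs (74.2 and 63.3 CPM, 0.22), so for these a difference was also present in some WT cells. In the remaining WT libraries H2-Q4 had -0.49 (lung), -0.23 (liver) and -0.15 (colon), and H2-T23 0.02 (brain), -0.03 (liver) and -0.18 (colon). H2-Q6, too low on average to be counted, was higher in 5 of 5 as well, at 34.3 and 17.2 CPM in KCs and 28.3 and 12.7 in SMs, but also at 23.9 and 11.3 in WT KCs. The mean log2 ratios over the 5 Zeb2KO libraries were 0.46 for Tap1 (SD 0.21), 0.45 for H2-Q4 (SD 0.29), 0.28 for H2-T23 (SD 0.19) and 0.71 for H2-Q6 (SD 0.32), each with an exact sign-flip permutation p of 0.0625, the smallest that 5 libraries allow. H2-K1, B2m and H2-Q7 were higher in 4 of 5, by 0.12, 0.18 and 0.50 on average, and H2-M3 in 1 of 5. H2-D1 was higher in 3 of 5 (mean 0.11), and lower in CMs (1680 and 2048 CPM) and SMs (1492 and 1607). H2-M2 was higher in 2 of 5 (mean -0.58), at 10.4 and 33.2 CPM in CMs. Without the lung library the mean of B2m was 0.04. Cells with a marker UMI were also deeper, for instance with a median of 6427.5 against 3853 UMIs in Zeb2KO AMs, and the part of depth was not tested.

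**Figure D5:**
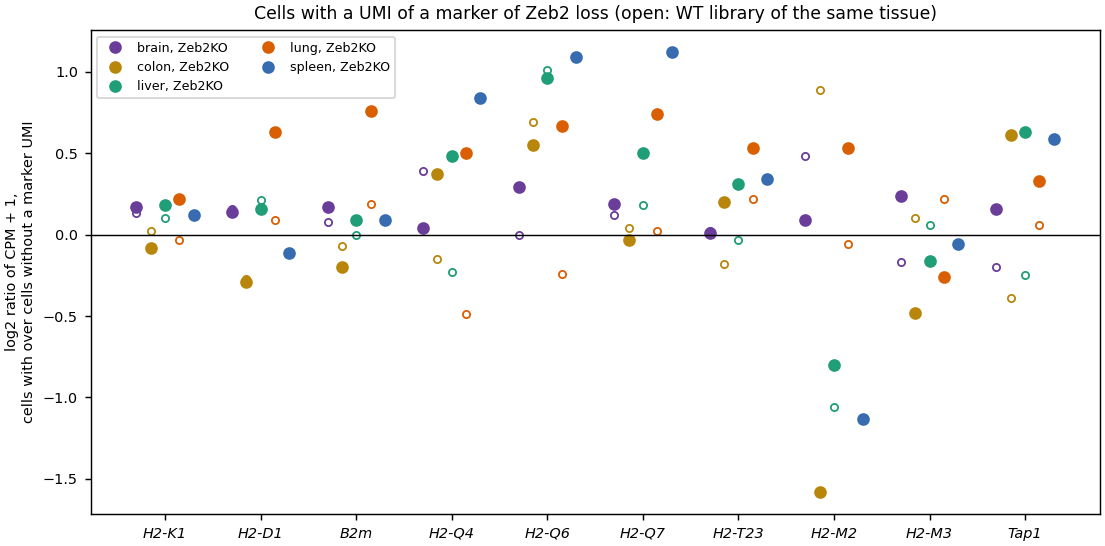
Log2 ratio of CPM + 1 between cells with and without a UMI of a surface marker of Zeb2 loss, for each class I gene, in the Zeb2KO library of each tissue (filled) and in the WT library of brain, colon, liver and lung (open, WT SMs having only 5 such cells). Filled points for H2-Q4, H2-Q6, H2-T23 and Tap1 lie above 0 in all 5 tissues.

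Clusters within the liver and the spleen are given as a description. The KC cluster led by Siglecf and Ms4a1, with 1882 cells of the Zeb2KO and none of the WT library, had 173 CPM of Tap1 (166 to 181), 36.5 of H2-Q6 (33.2 to 40.2) and 113 of H2-Q7 (107 to 119). A smaller cluster without WT cells and with the same markers among its leading genes (96 cells) had 92.0 CPM of Tap1 (65.1 to 126), 7.26 of H2-Q6 (1.5 to 21.2) and 53.2 of H2-Q7 (33.4 to 80.6), no higher than the WT KCs. Another Zeb2KO KC cluster, of 597 cells with Cx3cr1 and Ccr2 among its leading genes, had 97.5 CPM of Tap1 (88.9 to 107), 11.6 of H2-Q6 and 65.9 of H2-Q7, close to the WT library. In SMs a Zeb2KO cluster of 699 cells, led by S100a8, S100a9 and Camp, genes of neutrophils, and by neither marker of Zeb2 loss, had 35.9 CPM of H2-Q6 and 90.5 of H2-Q7, against 4.57 and 18.5 in the largest, of 1567 cells. In both tissues the H2-Q genes of a Zeb2KO library were thus unevenly spread over its macs.

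Over the 11 libraries, the genes whose log2(CPM + 1) was most like that of a member, among 6440 genes, are given as a description, since libraries of a tissue share their cells' origin. H2-K1 was most like Sp100 (r = 0.96) and Rsad2 (0.94), H2-D1 like Oasl1 and Psmb9 (0.90 each), B2m like Oasl2 (0.93) and Lamp1 (0.90), and Tap1 like Tor3a and Irgm1 (0.93 each). H2-T23 was most like Rpf2 (0.95) and Ube2l6 (0.94), H2-Q7 like Cd40 (0.98) and Itgb7 (0.95), H2-Q4 like Evi2a (0.95), H2-M3 like Gbp9 (0.98), H2-Q6 like Vars (0.84) and H2-M2 like Apol7c (0.90). Among the members, B2m and H2-Q7 (0.89), H2-D1 and H2-Q7 (0.88), H2-D1 and B2m (0.83) and H2-M3 and Tap1 (0.92) ran together, H2-K1 and H2-D1 less so (0.57), and H2-M2 had at most 0.40 with any other member.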

How the data were processed

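The authors aligned reads to mm10 and counted UMIs with Cell Ranger, and the deposited values are raw UMI counts per gene and cell barcode. Cells over 3 median absolute deviations from their library's median were left out, the rest clustered by tissue (scanpy 1.11.5, 2000 variable genes, 30 components, Leiden resolution 0.8), and clusters with markers of other cell types removed, by limits set after the clusters were seen. No doublet caller was run. Counts were summed per library as CPM with exact Poisson 95% intervals, and ratios used CPM + 1. With 1 library per tissue and genotype, the test of genotype used the 5 tissues as pairs (edgeR 4.0.16, quasi-likelihood, tissue block, with DESeq2 1.42.0 as an alternative). Cell splits were tested with the exact two-sided sign-flip permutation test over libraries (scipy 1.17.1), Benjamini-Hochberg adjusted over genes at 20 CPM or more. Where animals behind the libraries are not given, p-values measure only the spread between libraries. The members and lists were chosen with earlier results of these data known. Genes named from a list are the 5 with the largest ratios among those called, unless said otherwise. Promoters are from RefSeq (GRCm38.p6) and positions from GENCODE M21. Of the other class I genes, 6 were not analysed here. Alternatives covered scalings, pseudocounts, limits, cell sets and leaving out each tissue. Some marker results are not reported here.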

Additional observations from a re-analysis of the deposited data

Results flagged for a closer look

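The 5 results flagged are pairs of tissues in which a gene lay above 0 in one and below 0 in the other, each by 0.1 or more and at least one of them past 2-fold, with 1 pair of libraries each, so the differences were not tested. For H2-K1 the log2 ratio of Zeb2KO to WT was 1.38 in brain and -0.26 in liver, a difference of 1.64, and -0.56 in lung, a difference of 1.94 from brain. H2-D1 had 1.86 in brain and -0.34 in liver, a difference of 2.20. B2m had 1.16 in brain and -0.30 in liver, a difference of 1.46, and 1.23 in lung, which leaves liver -1.54 below lung. Against the Nr1h3fl/fl WT library the liver ratio of H2-D1 was 0.44, so its sign depends on the WT library used.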

How the results depend on the processing

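The members called in brain numbered 6 under all alternatives of scaling, pseudocount, level limit and cell set but the added limit below. In liver the count of 1 fell to 0 with a pseudocount of 5 CPM, a limit of 50 CPM, all barcodes or the cell filter alone, and was 3 against the Nr1h3fl/fl WT library. In lung it was 2 with a limit of 5 CPM or none, and in spleen 1 with no limit. With the 95th percentile of the differences between the WT KC libraries as the limit, chosen after seeing the data, it was 7 in brain, 2 in colon and 1 in spleen. For the shift shared by the tissues, DESeq2 called 3 members in place of 0, and as each tissue was left out H2-K1 ran from -0.08 (without brain) to 0.35, H2-M3 from -0.08 (without brain) to 0.16, and H2-M2 from -0.32 (without lung; -0.26 without spleen) to 1.61. In the interferon split the members higher in all libraries numbered 2 with each cell at its own depth, 7 without the Nr1h3fl/fl library, and 4 to 7 as each tissue was left out. H2-M2 turned to 0.19 at 1 UMI and 0.23 at each cell's own depth, and H2-Q6 to -0.15 at 10 UMIs, and ran from -0.01 (without lung) to 0.46. In the class II split the count was 0 at 1 UMI. A split at each library's median brought H2-T23 (0.35) and Tap1 (0.43) past an adjusted p of 0.05 in the sign-flip permutation test. In that setting 591 of all 5795 genes passed, 91 of them higher. For the markers of Zeb2 loss the count was 0 with the second marker alone. The causes were not tested. Over all alternatives 448 values of single log2 ratios differed from those reported by less than their counting interval and 72 by more. Changes of the level limit (5 CPM, 50 CPM or none) cannot change a ratio, so their values are all among the 448 by construction. The pairing of libraries by tissue is part of the test itself, and the labels give no replicate numbers to pair by. Depth limits H2-M2 outside the colon and H2-Q6 in AMs.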

Other observations

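Several kinds of cells left out as other cell types had higher H2-Q6 or H2-Q7 levels than the macs of their libraries. Splenic B cells (633 WT and 374 Zeb2KO cells of one cluster) had 96.8 CPM of H2-Q6 (81.9 to 114) in the WT and 97.7 in the Zeb2KO library, against 9.86 and 13.7 in the SMs, and 137 and 142 CPM of H2-Q7. A cluster of 78 cells with T or NK cell markers in the WT spleen had 268 CPM of H2-Q7 (202 to 349) and 73.2 of H2-Q6. In the liver, B cells (145 WT and 133 Zeb2KO) had 60.9 and 57.5 CPM of H2-Q6, and cells with endothelial markers (109 WT and 381 Zeb2KO) had 177 and 99.1 CPM of H2-Q7. With these cells kept, the liver log2 ratio of H2-Q6 was 0.92, below the limit of 1.

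H2-M2 was also found in a small liver cluster led by Retnla, Cxcl9, Mmp12 and Apol7c, at 30.7 CPM in 89 WT cells, 28.7 in 79 Zeb2KO cells and 42.6 in 62 cells of the Nr1h3fl/fl WT library, while the KCs as a whole had 1.07, 1.83 and 1.85 CPM. Apol7c is also the gene whose level over the libraries was most like that of H2-M2. In the same cluster Tap1 was at 219 CPM in the Zeb2KO cells, and H2-Q6 at 41.4 in WT and 63.4 in Zeb2KO cells.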
